A study of Mus musculus with 47 samples.

Results

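The genes described here were the voltage-gated sodium channel, voltage-gated calcium channel and HCN channel genes of single neuropeptide Y (NPY)-positive neurons. They were taken by symbol from the deposited read counts: every symbol that starts with Scn, Cacna or Cacnb and a digit, and the numbered Hcn symbols. This gave 36 of 22800 gene symbols, of which 10 encode sodium channel α subunits, 4 sodium channel β subunits, 10 calcium channel α1 subunits, 4 calcium channel α2δ subunits, 4 calcium channel β subunits and 4 HCN channels. The rule itself reads symbols only.

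Sodium channel α subunits carry the inward current of the action potential upstroke, and their β subunits set gating and surface expression. Calcium channel α1 subunits form the pore of the L-type, P/Q-, N-, R- and T-type channels. The cytosolic β subunits and the extracellular α2δ subunits bring that pore to the membrane, and P/Q- and N-type channels trigger transmitter release. HCN channels open on hyperpolarization, are tuned by cyclic nucleotides, and shape resting potential and rhythmic firing.

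The study drew the cytosol of single fluorescent neurons into a patch pipette (Patch-RNAseq) to compare NPY-positive GABAergic interneurons of the superficial auditory cortex (AC) with those of hippocampal area CA3. Here 10 AC cells, 13 CA3 cells and 3 CA1 cells were described, a fixed set of columns smaller than the 20 AC and 21 CA3 columns that the labels give. Where all of those were used, the AC columns N4 and N4X, which agreed closely, were averaged as 1 cell, which leaves 9 AC and 8 CA3 cells outside the set. These held GABAergic markers at 24.4 to 35918 CPM in AC (median 8580) and 0 to 27315 CPM in CA3 (median 992). Their astrocyte markers reached 31129 and 37179 CPM, their oligodendrocyte markers 534 and 129926 CPM and their pyramidal cell markers 14899 and 1818 CPM, so results over all labelled cells include columns rich in other cells' markers. The study's own choice of cells was not rebuilt, and the CA3 set here is smaller than the one it analysed. All came from mice of either sex, 3 to 8 weeks old, whose hrGFP transgene (named NPY-EGFP in the series design) marks cells that express Npy. AC cells lay in layers 1 and 2 of coronal slices and CA3 cells in stratum lacunosum-moleculare of horizontal slices.

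The 8 mice of the series were not tied to cells, so each region was 1 sample and no test between regions was possible. The SD below is over cells and is a description. AC cells held 1715012 to 6265431 reads on genes and 3163 to 6288 genes with a read, CA3 cells 2229519 to 7949918 reads and 3679 to 8149 genes, and the 3 CA1 cells 601781, 3202430 and 1230347 reads. Levels are in CPM, the reads of a gene multiplied by 1000000 and divided by the cell's reads on genes, and differences are in mean log2(CPM + 1) over cells, AC minus CA3. A difference of at least 1 on that scale is spoken of as called. Gad1, the enzyme that makes GABA, and Npy were read in all 23 AC and CA3 cells. GABAergic markers summed to 4415 to 22363 CPM in AC, 3585 to 22890 CPM in CA3 and 12323 to 15344 CPM in CA1, so every cell carried them. Astrocyte markers summed to 0.247 to 3015 CPM in AC (6 of 7 genes read) and 0 to 660 CPM in CA3 (3 of 7), and oligodendrocyte markers to 0 to 367 and 0 to 1043 CPM (3 and 5 of 6). Pyramidal cell markers summed to 0.229 to 157 CPM in AC (median 68.0, 5 of 6 genes read) and 0.40 to 383 CPM in CA3 (median 9.29, 4 of 6). Of these Slc17a7, the glutamate transporter of pyramidal cells, stood at 16.4 CPM summed in AC and 1.02 CPM in CA3. In CA1 cells N1, N2X and N6 astrocyte markers summed to 1683, 155 and 211 CPM, oligodendrocyte markers to 354, 0 and 267 CPM, and pyramidal cell markers to 510, 0.312 and 50.4 CPM. The part of these markers in the values below was not tested.

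Promoter sequence was looked up for all members, and 26 of the 36 had at least 1 promoter in the RefSeq table used. The following 4 windows are the 250 bases before the RefSeq start (build GRCm38.p6), given 5′ to 3′ on the gene's strand in lower case. They are shown because they belong to the sodium channel α subunits that most often led their family, to the leading α2δ subunit and to an HCN gene, and because they range widely in base composition. Capitals mark a GC box (GGGCGG or CCGCCC) or a CCAAT box (CCAAT or ATTGG).
Scn1a, chr2:66440838-66441087, minus strand: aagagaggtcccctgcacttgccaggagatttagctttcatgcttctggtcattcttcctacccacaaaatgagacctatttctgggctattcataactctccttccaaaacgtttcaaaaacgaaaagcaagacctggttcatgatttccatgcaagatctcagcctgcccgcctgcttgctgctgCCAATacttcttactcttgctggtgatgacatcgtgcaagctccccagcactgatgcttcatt
Scn2a1 (Scn2a in RefSeq), chr2:65620519-65620768, plus strand: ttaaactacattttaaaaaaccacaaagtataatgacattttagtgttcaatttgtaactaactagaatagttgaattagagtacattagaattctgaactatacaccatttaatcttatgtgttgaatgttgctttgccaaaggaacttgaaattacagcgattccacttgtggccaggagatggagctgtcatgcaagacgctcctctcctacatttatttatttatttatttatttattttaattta
Cacna2d1, chr5:15934441-15934690, plus strand: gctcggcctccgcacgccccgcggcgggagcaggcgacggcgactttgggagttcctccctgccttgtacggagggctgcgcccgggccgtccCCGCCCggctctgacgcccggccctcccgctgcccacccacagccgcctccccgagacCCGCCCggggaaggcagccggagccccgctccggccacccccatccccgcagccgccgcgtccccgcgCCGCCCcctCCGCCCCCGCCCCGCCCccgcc
Hcn2, chr10:79716384-79716633, plus strand: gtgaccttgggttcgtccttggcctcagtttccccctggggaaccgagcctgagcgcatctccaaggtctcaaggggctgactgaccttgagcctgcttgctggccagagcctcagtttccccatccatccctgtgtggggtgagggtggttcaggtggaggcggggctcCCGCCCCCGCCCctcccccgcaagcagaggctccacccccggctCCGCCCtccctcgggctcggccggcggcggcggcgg

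The window of Cacna2d1 was 82.4% G and C with 6 GC boxes, and that of Hcn2 70.4% with 3 GC boxes. The window of Scn1a was 46.8% G and C with 1 CCAAT box, and that of Scn2a1 was 29.6% with none of the motifs searched, the lowest among members. The 36 windows of the 26 members had a median of 58.8% G and C, against 52.4% for all 32851 windows of the table. A GC box on either strand stood in 41.7% of member windows against 32.7% of all windows, a CCAAT box in 22.2% against 33.8%, and a TATA box (TATAAA or TTTATA) in 5.56% against 12.4%. No member window held the cyclic AMP response element TGACGTCA, found in 1.55% of all. These are letters in a window and no measure of a factor's binding.

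Between 6 and 18 of the 36 genes had a read in an AC cell (median 14.5), between 8 and 20 in a CA3 cell (median 17), and 16, 14 and 13 in the CA1 cells N1, N2X and N6. Together they took 0.0920% to 0.493% of the reads of an AC cell (median 0.216%) and 0.0832% to 0.326% of those of a CA3 cell (median 0.184%). A cell thus showed fewer than 21 of the 36 genes, and the summed level overlapped between regions. Over the 23 AC and CA3 cells the number of members read went with the number of all genes read (Pearson's r = 0.80, Spearman's rho = 0.82, a description over cells that share their preparation) and not with the number of reads (r = 0.03).

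**Figure D1:**
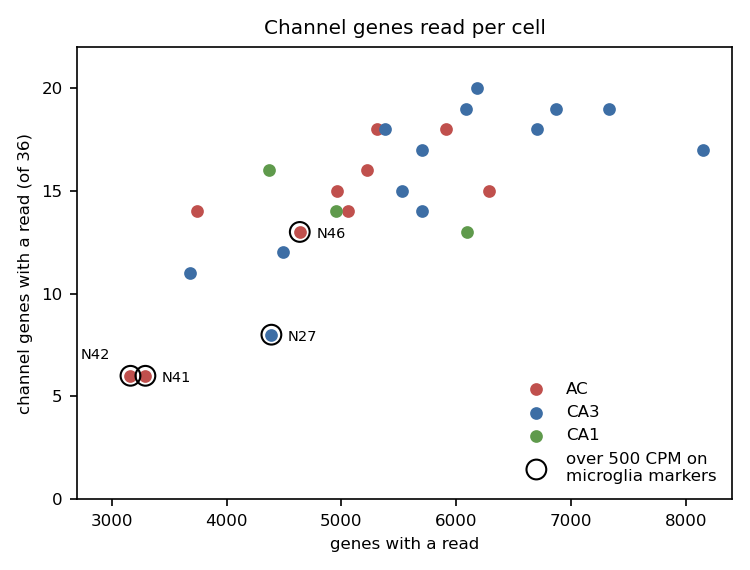
Number of the 36 channel genes with a read (vertical axis) against the number of all genes with a read (horizontal axis), 1 point per cell in AC, CA3 and CA1. Circled cells carried over 500 CPM on 6 microglia markers, and N41 and N42, with 6 members each, sit lowest.

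Of the 36 genes, 19 were read in at least 5 of 10 AC, 7 of 13 CA3 or 2 of 3 CA1 cells, and 17 were below that in every region. Those reported here are described singly below. No read was found in the 26 cells for 6 genes, among them Scn4a of skeletal muscle, Scn10a and Scn11a of sensory neurons, the β subunit Scn4b, and Cacna2d4. No read in the summed AC, CA3 or CA1 reads allows up to 0.0881, 0.0614 or 0.596 CPM by counting error alone, and 0 of 10, 0 of 13 or 0 of 3 cells allows shares of up to 30.8%, 24.7% or 70.8% (exact Clopper-Pearson 95% limits). These intervals and those below cover counting error only, since amplified cDNA reads are not independent molecules.

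**Figure D2:**
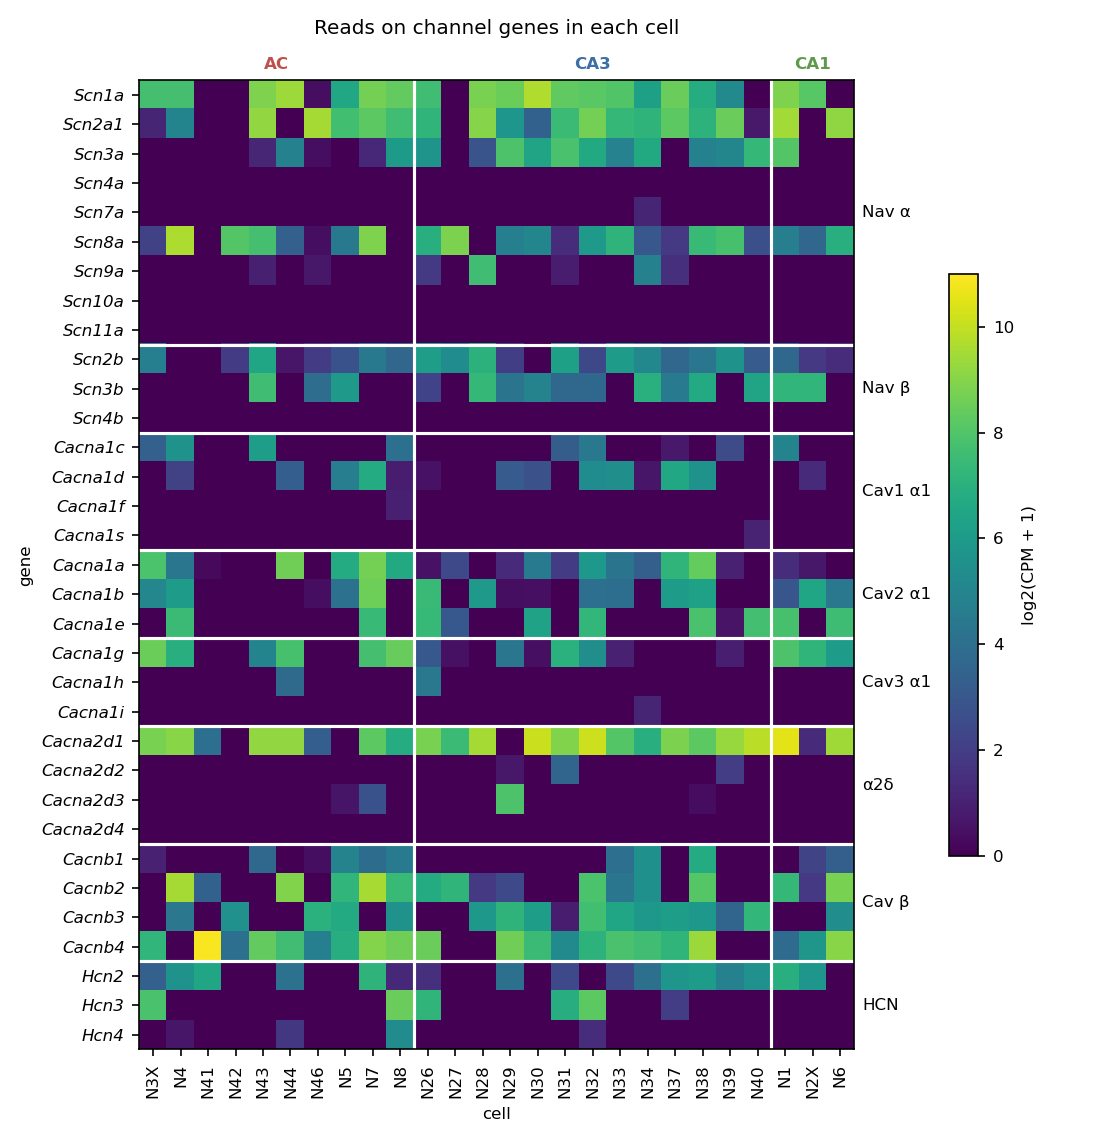
Level of each channel gene reported, as log2(CPM + 1), in each AC, CA3 and CA1 cell. Scn3a has a read in 11 of 13 CA3 cells and 5 of 10 AC cells.

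Between regions, 30 of the 36 genes could be compared, those with a read in AC or CA3. The mean level was at least 1 log2 unit higher in AC for 6 of the 30 (20.0%) and at least 1 higher in CA3 for 8 (26.7%). Of all 13624 genes with a read, 11% were called higher in AC and 27.5% higher in CA3, so the share called in CA3 was close to that of all genes and the share in AC above it. The median difference was -0.16 among the 30 members and -0.24 among all genes, and -0.72 among the 5964 genes read in at least 10 cells. Among the 17 members read in at least 10 cells, 5 (29.4%) were called in AC and 6 (35.3%) in CA3, beside 13.6% and 43.2% of all such genes. Among the members named below, the difference exceeded the larger of the 2 SDs over cells for Scn3a only. Over 500 CPM on 6 microglia markers was held by 4 cells, the AC cells N42 (3707 CPM), N46 (2740) and N41 (865), and CA3 cell N27 (1864), while the other 19 held 0 to 483 CPM. These 4 cells, set apart at a level chosen after the values were seen, are called microglia-rich below. Of those markers Tmem119 was at 0 in all cells, and P2ry12 was at 0 in these 4 cells. Cx3cr1 reached 404, 719 and 497 CPM in N41, N42 and N46 but was at 0 in N27. The marker reads of N27 lay nearly all on C1qb (1648 CPM) and C1qa (216 CPM). Csf1r was at 2583 and 1274 CPM in N42 and N46, 0.80 CPM in N27 and 0 in N41. The same 4 cells had 6, 13, 6 and 8 members read, and calcium channel α1 subunits at 0, 0.308, 0.229 and 12 CPM, against 98.4 to 1291 CPM in the other 7 AC and 7.30 to 689 CPM in the other 12 CA3 cells. Without the 4 cells 8 members were called in AC and 6 in CA3, beside 16.8% and 26.5% of 13303 genes, and the part of the microglia reads in any value was otherwise not tested. Without AC cell N8 or CA3 cell N40, 3 members were called in AC.

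**Figure D3:**
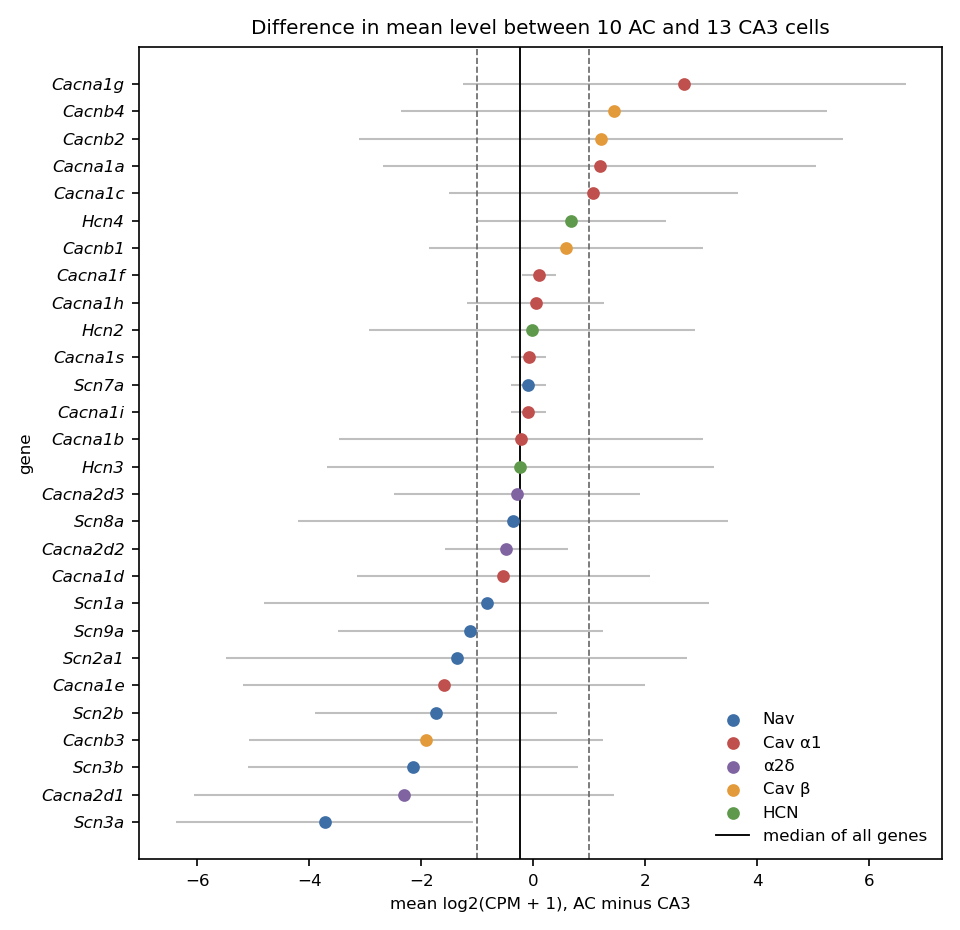
Difference in mean log2(CPM + 1), AC minus CA3, for the reported channel genes with a read, with bars of the larger SD over cells of the 2 regions. Scn3a (-3.73) is the gene plotted whose difference exceeds that bar.

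Among the sodium channel α subunits, Scn1a, Scn2a1 and Scn8a, the main subunits of central neurons (Nav1.1, Nav1.2 and Nav1.6), were read in most cells of both regions, and Scn3a (Nav1.3), known as the subunit abundant before birth, was higher in CA3. The summed α subunit level was 649 CPM in the median AC cell and 652 CPM in the median CA3 cell. One AC cell, N41, had no α subunit read among 4370881 reads.

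Scn3a was read in 5 of 10 AC cells and 11 of 13 CA3 cells. It ranged from 0 over a median of 0.154 to 63.2 CPM in AC (highest in N8), and from 0 over 50.2 to 243 CPM in CA3 (highest in N29). In CA3, 6 cells were above every AC cell, and only 2 CA3 cells were at or below the AC median. The mean level was 1.37 ± 2.21 (SD, n = 10) in AC and 5.09 ± 2.66 (SD, n = 13) in CA3 on the log2(CPM + 1) scale, a difference of -3.73. Summed over cells it was 14.6 CPM (exact Poisson 95% interval 13.3 to 15.9) in AC and 80.4 CPM (77.9 to 83.0) in CA3. With a minimum of 10 reads, 2 AC cells and 11 CA3 cells carried it. Of the CA1 cells N1, which also carried the most astrocyte marker reads, had 269 CPM, above each AC and CA3 cell, and N2X and N6 had none.

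Scn1a, the α subunit best known from fast-spiking interneurons, was read in 8 AC, 11 CA3 and 2 CA1 cells. Its level was 0, 215 and 676 CPM (lowest, median, highest) in AC and 0, 260 and 818 CPM in CA3. Values overlapped throughout, with summed levels of 237 and 217 CPM and a difference of -0.83. Without any 1 of the AC cells N3X, N4, N43, N44, N7 or N8 or the CA3 cells N27 or N40 the difference reached -1.05 to -1.39, while from summed reads it was 0.13 and without the 4 microglia-rich cells 1.03, in the other direction.

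Scn2a1, the subunit of axons and unmyelinated fibres, was read in 7 AC, 12 CA3 and 2 CA1 cells, at 0, 113 and 737 CPM in AC and 0, 148 and 513 CPM in CA3. Its mean level differed by -1.37, while the summed levels were alike, 194 CPM in AC and 198 CPM in CA3. Its call thus went with the cells at 0, 3 of 10 in AC and 1 of 13 in CA3. It was lost without AC cell N3X (-0.96) or without N41, N42 or N44 (-0.83 each).

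Scn8a, the subunit of the distal axon initial segment and of nodes, was read in 8 AC, 12 CA3 and 3 CA1 cells. It stood at 0, 15 and 801 CPM in AC and 0, 32.5 and 454 CPM in CA3, and 2 AC cells were above each CA3 cell. Its difference of -0.36 turned to 0.33 from summed reads (123 CPM in AC against 97.5 in CA3), 0.07 at a pseudocount of 10 and 0.68 without the 4 microglia-rich cells, so no direction is given for it. Scn9a (Nav1.7), best known from sensory neurons, was read in 2 AC cells at under 1 CPM and in 5 CA3 cells, where N28 with 197 CPM held 85.5% of the level. Its call in CA3 (-1.12) was lost without N28 (-0.59) or N34 (-0.83). Scn7a was read in 1 CA3 cell, N34, at 1.20 CPM.

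Levels of different genes were compared per kilobase of exon, as shares of the family in each cell with at least 10 family reads. Among sodium channel α subunits Scn1a led in 4 of 9 AC cells, Scn2a1 in 3 and Scn8a in 2. In CA3 Scn1a led in 6 of 13 cells, Scn2a1 in 5, Scn3a in 1 (N40, 97.0% of α subunit CPM per kb) and Scn8a in 1 (N27, its sole α subunit). Scn3a made up a mean of 1.56% of α subunit CPM per kb in AC (0.474% without N8) and 18.1% in CA3 (11.5% without N40). The leading subunit held a median of 70.1% in AC and 49.6% in CA3. In 4 AC cells it held 95.5% to 100%, and in CA3 cells N40 and N27 97.0% and 100%. Of these cells N42, N46 and N27 were microglia-rich. In CA1 Scn2a1 led in 2 cells and Scn1a in 1.

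**Figure D4:**
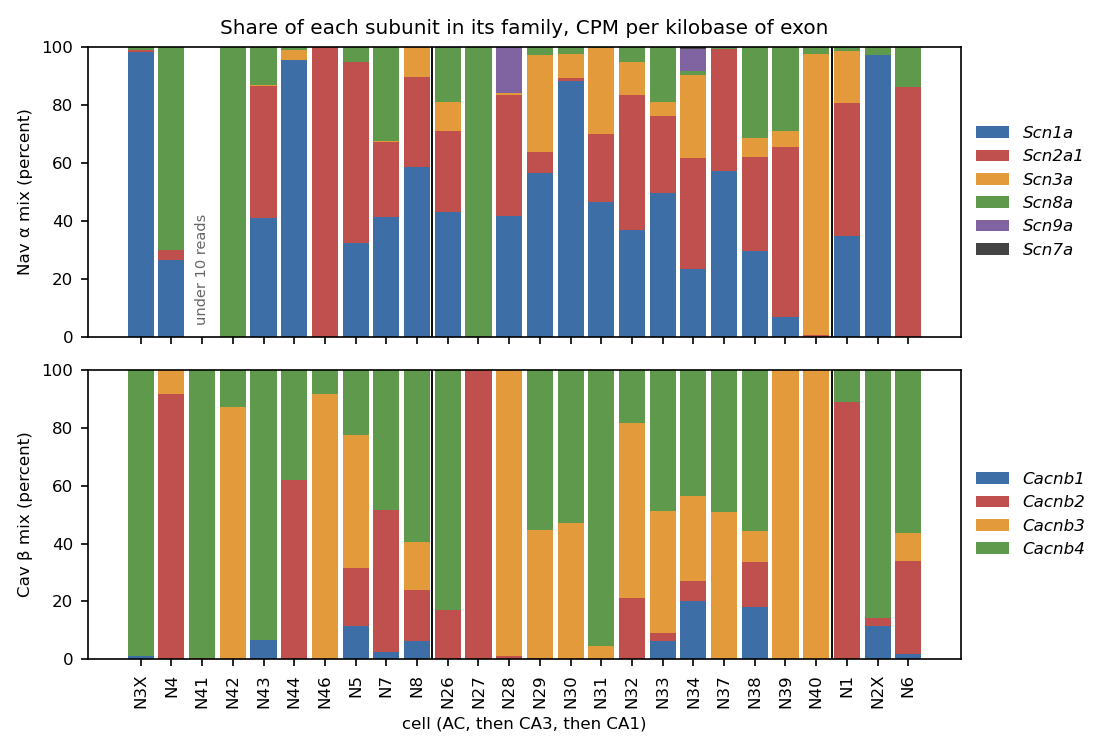
Share of each subunit in the CPM per kb of the sodium channel α and calcium channel β families, in each AC, CA3 and CA1 cell with at least 10 reads on the family. Scn3a takes a mean of 18.1% of the sodium channel α level in CA3 (11.5% without N40) and 1.56% in AC (0.474% without N8).

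Among the sodium channel β subunits, Scn2b and Scn3b were higher in CA3. Scn2b, the disulfide-linked subunit, was read in 8 AC, 12 CA3 and 3 CA1 cells, at 0, 4.34 and 86.5 CPM in AC and 0, 33.9 and 134 CPM in CA3. One AC cell was above the CA3 median, and the difference was -1.74. Scn3b, a non-covalently bound subunit, was read in 3 AC, 10 CA3 and 2 CA1 cells, at 0, 0 and 198 CPM in AC and 0, 18 and 158 CPM in CA3, a difference of -2.16. Where it was read at all, its median was 58.2 CPM in AC and 25.6 CPM in CA3, so the difference lay in the number of cells with a read.

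**Figure D5:**
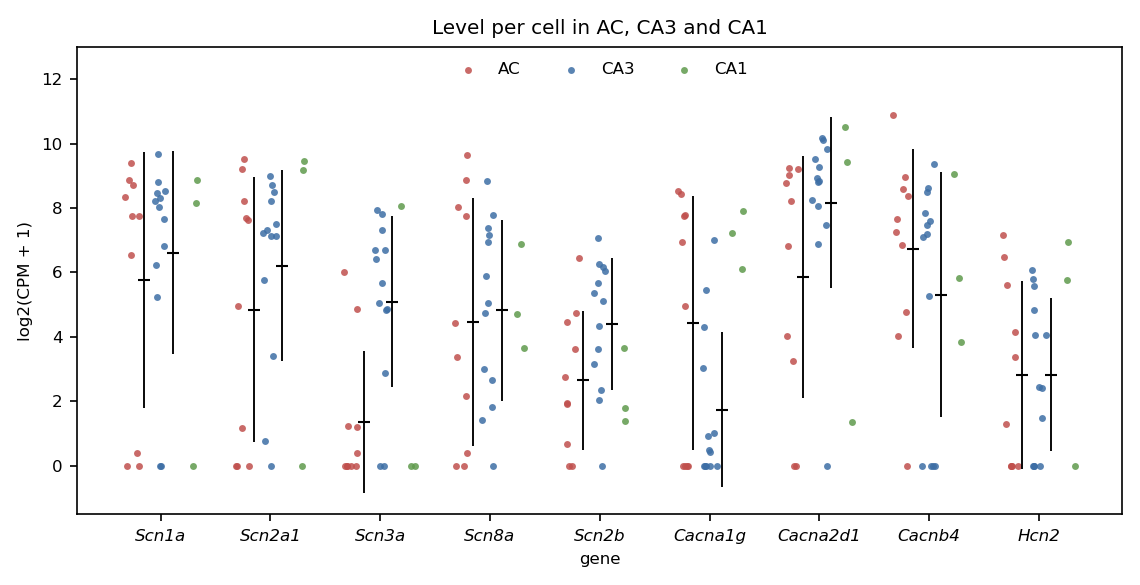
Level per cell, as log2(CPM + 1), of channel genes in AC, CA3 and CA1, with the mean and SD over cells for AC and CA3. Of the 10 AC cells, 9 lie below the CA3 median for Scn3a.

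Among the calcium channel α1 subunits, the T-type gene Cacna1g and the P/Q-type gene Cacna1a were higher in AC. The R-type gene Cacna1e was called in CA3, but its direction turned with the choice of cells. The summed α1 level was 295 CPM in the median AC cell and 109 CPM in the median CA3 cell. The 3 microglia-rich AC cells held at most 1 α1 read each, and CA3 cell N27 held 30.

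Cacna1g (Cav3.1), a low-voltage-activated channel known for burst firing, was read in 6 AC, 8 CA3 and 3 CA1 cells. It was at 0, 75.7 and 367 CPM in AC and 0, 0.40 and 128 CPM in CA3. In AC, 4 cells were above every CA3 cell, and 1 CA3 cell, N31, was above the AC median. Where it was read, the median was 219 CPM in AC and 4.10 CPM in CA3, so cells with a read differed in level more than in number. The difference in mean level was 2.70, within the larger SD of 3.95, and 4.49 without the 4 microglia-rich cells. The summed levels were 151 CPM (147 to 156) in AC and 14 CPM (13 to 15.1) in CA3. The CA1 cells N1, N2X and N6 had 239, 147 and 67.5 CPM. The other T-type genes were sparse: Cacna1h was read in AC cell N44 (13 CPM) and CA3 cell N26 (20.2 CPM), and Cacna1i in CA3 cell N34 (1.20 CPM).

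Cacna1a (Cav2.1), the P/Q-type pore of fast transmitter release, was read in 7 AC, 11 CA3 and 2 CA1 cells, at 0, 60.8 and 412 CPM in AC and 0, 4.40 and 340 CPM in CA3. In CA3, 11 cells were below the AC median, and CA1 cells had 1.66, 0.625 and 0 CPM. The difference of 1.18 fell to between 0.70 and 0.97 without any 1 of the AC cells N3X, N44, N5, N7 and N8 or the CA3 cells N26, N28 and N40. Without the 4 microglia-rich cells it was 2.94.

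Cacna1b (Cav2.2), the N-type pore, was read in 5 AC, 8 CA3 and 3 CA1 cells, at 0, 0.154 and 377 CPM in AC and 0, 0.358 and 167 CPM in CA3. AC cell N7 held 76.1% of its AC level, and the difference of -0.22 became 0.43 from summed reads and 0.54 without the 4 microglia-rich cells. Cacna1e (Cav2.3), the R-type pore, was read in 2 AC, 7 CA3 and 2 CA1 cells. It reached 180 CPM in AC and 225 CPM in CA3, and the difference was -1.59. Where it was read, its median was higher in AC, 178 against 156 CPM. Over all labelled cells the difference of Cacna1e was 0.12, but -0.38 without N51, a cell outside the set that held 77.8% of its level over all AC cells (2208 CPM), and -0.18 to -0.22 without N4, N7 or N47. Its direction thus turned with the choice of cells.

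Of the L-type genes, Cacna1d (Cav1.3) was read in 5 AC, 8 CA3 and 1 CA1 cells, at 0, 0.399 and 108 CPM in AC and 0, 0.601 and 96.0 CPM in CA3. Its difference was -0.54, and -1.09 without AC cell N7, which held 73.8% of the AC level. Over all labelled cells it was 0.22, and without the 4 microglia-rich cells 0.03. Cacna1c (Cav1.2), the L-type pore of most excitable cells, was read in 4 AC, 4 CA3 and 1 CA1 cells, up to 68.2 CPM in AC and 20.4 CPM in CA3. Its call in AC (1.07) was lost without N3X (0.91), N4 (0.66), N43 (0.61) or N8 (0.84). Cacna1s of skeletal muscle and Cacna1f of retina were each read in 1 cell, at 1.16 CPM in CA3 cell N40 and 0.958 CPM in AC cell N8. Exons of Cacna1d and Cacna1h share bases with Chdh and Tpsg1, and exons of Hcn3 with Pklr, on the opposite strand. The library kit does not mark strand, so reads on the shared bases cannot be told apart.

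Per kb, the leading α1 subunit varied from cell to cell. In the 7 AC cells with at least 10 α1 reads Cacna1g led in 3, Cacna1a in 2, and Cacna1b and Cacna1c in 1 each. In CA3 Cacna1a led in 4 of 13 cells, Cacna1e in 3, Cacna1b and Cacna1g in 2 each, and Cacna1c and Cacna1d in 1 each. Cacna1g made up a mean of 40.2% of α1 CPM per kb in AC, 16.6% in CA3 (10.1% without N31) and 56.7% in CA1.

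Among the α2δ subunits, which carry the binding site of gabapentin in Cacna2d1 and Cacna2d2, Cacna2d1 was nearly the sole gene read and was higher in CA3. It was read in 8 AC, 12 CA3 and 3 CA1 cells, at 0, 206 and 602 CPM in AC and 0, 457 and 1144 CPM in CA3. In CA3, 5 cells were above every AC cell. The difference was -2.31, within the larger SD of 3.75, and the summed levels were 235 CPM (230 to 240) and 515 CPM (509 to 522). Without the 4 microglia-rich cells the difference was -0.89. CA1 cells N1, N2X and N6 had 1477, 1.56 and 684 CPM, the first above each AC and CA3 cell. N1 was also the CA1 cell with the most astrocyte marker reads, among them Gfap at 588 and Gja1 at 294 CPM. Cacna2d1 led the α2δ subunits in 8 of 8 AC cells and 12 of 13 CA3 cells. The exception was CA3 cell N29, which had no Cacna2d1 read and 244 CPM of Cacna2d3, 99.9% of all Cacna2d3 in CA3. Cacna2d3 was read in 2 AC cells at up to 5.77 CPM, and Cacna2d2 in 3 CA3 cells at up to 11.1 CPM. Neither was called (-0.30 and -0.49), though from summed reads their differences were -3.58 and -1.23.

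Among the cytosolic calcium channel β subunits, Cacnb4 and Cacnb2 had the higher mean level over cells in AC and Cacnb3 in CA3. Cacnb4, the subunit altered in the lethargic mouse, was read in 9 AC, 9 CA3 and 3 CA1 cells, at 0, 176 and 1906 CPM in AC and 0, 147 and 656 CPM in CA3. AC cell N41, which had no sodium channel α read, held 52.5% of the AC level. The difference of 1.43 became 2.18 without AC cell N4, 0.97 without N41 and 0.99 without any 1 of the CA3 cells N27, N28, N39 and N40.

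Cacnb2, the subunit best known from heart, was read in 6 AC, 8 CA3 and 3 CA1 cells, at 0, 80.2 and 746 CPM in AC and 0, 4.42 and 271 CPM in CA3. In AC, 3 cells were above every CA3 cell. Its difference of 1.21 fell to between 0.66 and 0.93 without any 1 of the AC cells N4, N44, N5, N7 and N8 or the CA3 cells N30, N31, N37, N39 and N40, and it was 3.01 without the 4 microglia-rich cells.

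Cacnb3, a β subunit of N- and L-type channels, was read in 5 AC, 11 CA3 and 1 CA1 cells, at 0, 9.91 and 128 CPM in AC and 0, 58.1 and 204 CPM in CA3. In CA3, 3 cells were above every AC cell, and the difference was -1.91. Where it was read, its mean log2 CPM was 0.23 higher in AC, while its median was higher in CA3. The difference in mean level thus lay largely in the number of cells with a read, 5 of 10 in AC and 11 of 13 in CA3. Cacnb1, the skeletal muscle subunit, was read in 6 AC, 3 CA3 and 2 CA1 cells, up to 29.6 CPM in AC and 107 CPM in CA3 (N38). It was not called, with a difference of 0.59, which was 1.04 without N38 and 1.21 without the 4 microglia-rich cells. From summed reads the difference turned to -0.77 (7.75 CPM in AC against 13.9 in CA3). Per kb, Cacnb4 led in 4 AC cells, Cacnb2 in 3 and Cacnb3 in 3, and in CA3 Cacnb4 led in 7 cells, Cacnb3 in 5 and Cacnb2 in 1.

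The HCN genes reported here, Hcn2, Hcn3 and Hcn4, were not called in either region from the mean log2 level over cells. Hcn3 and Hcn4 were called in AC from summed reads, most of which came from 1 AC cell, N8. Hcn2, which responds strongly to cyclic AMP, was read in 6 AC, 9 CA3 and 2 CA1 cells, at 0, 5.40 and 142 CPM in AC and 0, 4.45 and 67.0 CPM in CA3. Its levels overlapped between regions, with a difference of -0.02, and 0.26 from summed reads.

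Hcn3 was read in 2 AC and 4 CA3 cells, up to 363 CPM in AC cell N8 and 299 CPM in CA3 cell N32, a difference of -0.24. The direction turned from summed reads, at 94.1 CPM in AC against 34.7 in CA3 (1.41), and without the 4 microglia-rich cells (0.31). Cell N8 held 2272 of the 3205 AC reads of Hcn3, and without N8 the difference in mean level was -0.999. Hcn4, a pacemaker subunit, was read in 3 AC cells, with 92.8% of its level in N8, and in 1 CA3 cell at 1.60 CPM. Its difference was 0.67, 1.29 at a pseudocount of 0.1 and 2.93 from summed reads.

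None of the calls of Scn3a, Cacna1g, Cacna2d1, Cacnb3, Scn2b, Scn3b and Cacna1e was lost on leaving out 1 cell, but other settings ended some of them. At a pseudocount of 10 the differences of Scn2b, Scn3b and Cacna1e were -0.94, -0.88 and -0.79, and from summed reads that of Scn3b was -0.86. Without the 4 microglia-rich cells Cacna1e was at -0.96 and Cacna2d1 at -0.89. Of the other calls, a pseudocount of 10 left Scn2a1, Scn9a, Cacna1c and Cacnb4 at -0.67, -0.52, 0.54 and 0.82, and 1 of 0.1 left Cacna1a at 0.79. From summed reads Scn2a1 was at -0.03. Over all labelled cells Scn2a1, Scn9a, Cacna1a and Cacnb2 were at -0.79, -0.69, 0.88 and 0.55, and with DESeq2 factors Cacna1c was at 0.99. In CA1, 8 members were read in all 3 cells.

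Genes that act with these channels were taken from fixed lists of partners. Of 13 genes of the axon initial segment and of sodium channel partners, 3 (23.1%) were called in AC and 4 (30.8%) in CA3, beside 11% and 27.5% of all genes with a read. Ank3 (1.17, 9 AC and 11 CA3 cells), the ankyrin that anchors sodium channels, Sptbn4 (2.78, 8 and 6 cells), its spectrin partner, and Fgf14 (2.12, 8 and 7 cells), an intracellular sodium channel regulator, were higher in AC. The related Fgf12 (-2.34, 3 and 9 cells) and Fgf13 (-1.26, 8 and 12 cells), and Tnr (-4.18, 1 and 11 cells) and Cntn1 (-4.26, 5 and 13 cells), an extracellular and an adhesion partner of β subunits, were higher in CA3. Of 13 calcium channel partners and active zone genes with a read, 1 was called in AC and 1 in CA3 (7.69% each, below the 11% and 27.5% of all genes). Rims1 (1.20, 9 and 11 cells), which links calcium channels to vesicles, was called in AC and Cacng2 (-1.38, 6 and 12 cells), a protein of the calcium channel γ family that also binds AMPA receptors, in CA3. Of 3 HCN partners with a read, Kctd3 (2.44, 7 and 6 cells), an Hcn3 partner, and Flna (4.09, 7 and 3 cells), a cytoskeletal protein, were among the 3 called in AC, and none was called in CA3. The third, Pex5l (1.14), the HCN-binding protein TRIP8b, was read in only 2 AC and 1 CA3 cells, is named after its value was seen, and stood at 0.34 without AC cell N46 and 0.75 without N7. With so few genes these counts are given beside the 11% and 27.5% of all genes and nothing is read from them. Of the 4 genes of the sodium leak channel complex, Nalcn, its pore, was called in AC (1.82, 287 against 57.2 CPM summed), as was its partner Unc79 (1.09, 6 and 6 cells), and none in CA3, again beside 11% and 27.5% of all genes.

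Of these partner calls some rested on single cells. Ank3 fell to between 0.56 and 0.98 without any 1 of the AC cells N3X, N4, N44 and N5 or the CA3 cells N27, N33, N38, N39 and N40. Fgf13 was at -0.46 without AC cell N4 or N42. Rims1 was at 0.97 without N3X and at 0.79 or 0.80 without N4, N42, N27 or N38, and Unc79 at 0.56 to under 1 without any 1 of the AC cells N4, N42, N46 and N8 or of 8 of the CA3 cells. The calls of Sptbn4, Fgf14, Fgf12, Tnr, Cntn1, Cacng2, Kctd3, Flna and Nalcn held on leaving out each cell. From summed reads, however, Cacng2 was level, at 25.1 CPM in AC against 24.5 in CA3 (0.03 in log2 terms), Cntn1 at 257 and 391 CPM (-0.60) and Fgf13 at 446 and 577 CPM (-0.37), none of them past 1. Where Cntn1 was read its median was higher in AC, 459 against 318 CPM, so its call went with the AC cells at 0. A pseudocount of 10 also left Ank3, Fgf13, Cacng2 and Unc79 under 1 in size, and all labelled cells left Ank3, Fgf12, Fgf14, Cacng2 and Nalcn so. Without the 4 microglia-rich cells Fgf13 was at -0.43 and Unc79 at 0.47. Pex5l turned to -0.17 over all labelled cells.

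Several members lie side by side in the genome. Scn3a, Scn2a1, Scn1a, Scn9a and Scn7a lie between 65457118 and 66784914 of chromosome 2 (GENCODE vM21 on GRCm38), and their differences were -3.73, -1.37, -0.83, -1.12 and -0.09. Scn2b and Scn4b are neighbours on chromosome 9, at 45117782 to 45130070 and 45138395 to 45154152, and while Scn2b was read in 23 of the 26 cells, Scn4b was read in none. Cacna1g lies on the minus strand of chromosome 11 (94408391 to 94474198) and Cacna2d1 on the plus strand of chromosome 5 (15934691 to 16374511).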

How the data were processed

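The authors deposited raw read counts per gene for 47 cells, with no normalization. According to the methods, STAR aligned the reads to GRCm38 after trimming (Flexbar, Trimmomatic), HTSeq counted them (featureCounts in the submitters' processing notes), and counts of identifiers with the same symbol in annotation version 86 were averaged. No column was without a sample. AC columns N4 and N4X agreed closely (r = 0.997 on the log2 scale) and were averaged as 1 cell where all labelled cells were used.

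Counts were divided by each cell's total to give CPM, with a pseudocount of 1 for log2 levels, using Python 3.11.15, numpy 2.4.6, pandas 2.3.3, scipy 1.17.1 and matplotlib 3.10.9. No test between regions was made, since no label ties a cell to a mouse. Dixon's criterion was applied over AC cells to note single cells that stand apart. Exact Poisson and Clopper-Pearson 95% intervals cover counting error. Merged exon lengths and positions came from GENCODE vM21 (all 36 members matched) and promoters from RefSeq. Genes read in at least 5 of 10 AC, 7 of 13 CA3 or 2 of 3 CA1 cells were described singly, as were partner genes called and read that widely. Alternatives were scran 1.30.0, edgeR 4.0.16 and DESeq2 1.42.0 size factors (R 4.3.3), pseudocounts of 0.1 and 10, summed reads, all labelled cells, a minimum of 10 reads, thinning to 601781 reads, no length correction, each cell left out, and, chosen after seeing the data, cells with at most 500 CPM of microglia markers. Scripts were tested on simulated data. In these only unchanged genes were set to 0 at random, so calls that went with cells at 0 were not covered. Members and lists were chosen with earlier results of these data known. Some members are counted but not reported here by name.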

Additional observations from a re-analysis of the deposited data

Results flagged for a closer look

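Columns outside the described cells also held channel reads. In 7 of the 9 other AC columns (without N4X, averaged with N4) at least 1 of the 36 genes had more than 3 reads, the level that a count of 0 allows. N45 had 13 such genes, N48 8, N47 6, N51 5 and N50 4, while N9 had Scn1a alone and N52 had Scn4b alone, a gene with no read in the 26 described cells. In 4 of the 8 other CA3 columns the same held: N14 and N36 had 3 such genes each, N23 had Cacna1b and Hcn2, and N18 had Cacnb4. Among the 2 dentate gyrus cells and the NPY-negative CA3 cell no member was read, in libraries of 89297, 190573 and 291745 reads. The dentate gyrus cells held 37762 and 33709 CPM on astrocyte markers, and the NPY-negative cell 178958 CPM on oligodendrocyte markers, 3.43 CPM on GABAergic markers and no read on pan-neuronal markers. Dixon's criterion was applied over the 10 AC cells to 17 members. On the log2(CPM + 1) scale no AC cell stood apart in any of them. On the CPM scale the highest cell stood apart for 5: N7 for Cacna1b and Cacna1d, N41 for Cacnb4, N43 for Scn2b and N8 for Scn3a. The gap to the next cell was 0.82, 0.766, 0.737, 0.704 and 0.558 of the range. By chance about 1 in 20 groups would be noted, and CPM values are skewed.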

How the results depend on the processing

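No paired analysis was possible because the columns carry no replicate number that links cells across regions and no result comes from a test. The number of members called higher in AC, 6 as described, was 6 with scran or edgeR factors and 5 with DESeq2 factors, 4 at a pseudocount of 10 and 7 at 0.1, 8 from summed reads, 3 over all labelled cells and 8 without the 4 microglia-rich cells (over 500 CPM on microglia markers), and 3 to 7 on leaving out 1 cell. The number called higher in CA3, 8 as described, was 3 at a pseudocount of 10, 10 at 0.1, 5 over all labelled cells and 6 without the microglia-rich cells, and 7 to 10 on leaving out 1 cell. Of all calls over 13624 genes 28.5% were higher in AC, which became 46.3% from summed reads, 38.7% without the microglia-rich cells and 12.3% over all labelled cells. The share of all genes called moved as well, from 11% in AC and 27.5% in CA3 to 5.25% and 13.3% at a pseudocount of 10, 15.9% and 36.9% at 0.1, 23.4% and 27.1% from summed reads, 3.9% and 27.7% over all labelled cells (34 members tested) and 16.8% and 26.5% without the microglia-rich cells. Counts of members and partners are to be read beside these. Calls of Scn3a, Cacna1g and Cacnb3 were kept under each alternative run. The cause of the other changes was not tested. Cacna1e turned from -1.59 to 0.12 over all labelled cells (-0.38 without N51). Of the sodium channel and initial segment partners, 3 in AC became 6 from summed reads, 6 without the microglia-rich cells and 1 over all labelled cells, and 4 in CA3 became 2 from summed reads. Of the calcium channel partners, 1 in AC became 3 from summed reads, 2 over all labelled cells and 2 without the microglia-rich cells (0 to 2 on leaving out 1 cell), and 1 in CA3 became 4 from summed reads and 0 both at a pseudocount of 10 and over all labelled cells. Of the leak channel genes, 2 in AC became 1 at a pseudocount of 10 and over all labelled cells (1 to 2 on leaving out 1 cell), and 0 in CA3 became 1 from summed reads and without the microglia-rich cells (0 to 1 on leaving out 1 cell). Over all labelled cells 7 members rather than 17 were read in as large a share of AC cells, and 10 rather than 18 in CA3. The cells added there reached 37179 CPM on astrocyte and 129926 CPM on oligodendrocyte markers, and their part in these counts was not tested.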

Other observations

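Thinning every cell to the 601781 reads of the smallest CA1 library lowered the channel reads of larger libraries, as for Cacnb4 in N41, from 8329 to 1133. Most members read in a cell were still read in it. The number of gene and cell pairs with a read went from 135 to 123 in AC, from 207 to 194 in CA3 and from 43 to 40 in CA1, and 114, 178 and 33 pairs had at least 10 reads without thinning.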
